A study of Schizosaccharomyces pombe with 4 samples.

Results

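The 10 genes described here were listed as genes linked to the onset of DNA replication in fission yeast (Schizosaccharomyces pombe). They were chosen by name among the features of type mRNA: cdc18, cdt1, cdc22, suc22, cdt2, mik1, cig2, mrc1, ssb1 and rad21. All 10 were found, out of 5144 mRNA features and 7015 features in all. RNA was sequenced from 4 cultures, kept 3 days at 18 °C in YEA, a rich medium, to mid-log phase, with 1 library per genotype. The labels gave wild type and genomic deletions of swd22, ssu72 and clr4. No other allele is named for any group, and the labels do not say whether a deletion line was 1 clone. The proteins Swd22 and Ssu72 belong to the cleavage and polyadenylation factor (CPF), which forms RNA 3' ends, and Clr4 is the histone methyltransferase of heterochromatin. The title of the series asks about CPF in heterochromatin and gene silencing.

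Entry into S phase in fission yeast is accompanied by a wave of transcription driven by MBF, a factor built from Cdc10 with Res1 and Res2. MBF binds MluI cell cycle boxes, whose core is CGCG and whose full form is ACGCGT. Its known target genes provide the proteins that license replication origins, make deoxynucleotides, restrain mitosis during replication and hold sister chromatids together.

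The promoters of the genes are shown first because MBF acts through them. Sequences and the coordinates given with them are from RefSeq, build ASM294v3. The files name no build, so coordinates of the files' features are given separately. Gene starts are those annotated by RefSeq. The search covered 250 bases before to 50 after the gene start. ACGCGT is its own reverse complement, so one search covers either strand. Every ACGCGT contains a CGCG, and overlapping CGCG matches were counted separately.

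Of the 10 genes, 5 had ACGCGT in this window (cdc22, cdt1, cdt2, mrc1 and ssb1), against 166 of 5113 promoters (3.25%). At least 2 copies stood before cdc22, cdt2, mrc1 and ssb1, against 17 of all promoters (0.332%). The core CGCG was found in 9 of 10, against 18.2% of promoters. At least 4 cores were present in 7 of 10, namely cdc18, cdc22, cdt1, cdt2, cig2, mrc1 and ssb1, against 16 of 5113 promoters (0.313%). The minimum of 4 was chosen after the counts were seen. The members were chosen as MBF-regulated and related genes, so shares above those of all promoters could come from the choice itself. The gene suc22 had neither motif in the window.

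The 250 bases before the gene start are given for 4 genes that differ in these motifs: cdc22 (chrI:4226720-4226969, plus strand) with full boxes, cdc18 (chrII:2217985-2218234, minus strand) and cig2 (chrI:2709532-2709781, plus strand) with cores only, and suc22 (chrII:3721373-3721622, plus strand) with none. Capitals mark ACGCGT in cdc22 and CGCG in cdc18 and cig2.
cdc22: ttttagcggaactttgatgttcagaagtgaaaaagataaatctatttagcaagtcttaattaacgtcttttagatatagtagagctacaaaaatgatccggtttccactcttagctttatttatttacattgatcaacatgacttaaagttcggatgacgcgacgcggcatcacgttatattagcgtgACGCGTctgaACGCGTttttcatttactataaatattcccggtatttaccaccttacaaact
cdc18: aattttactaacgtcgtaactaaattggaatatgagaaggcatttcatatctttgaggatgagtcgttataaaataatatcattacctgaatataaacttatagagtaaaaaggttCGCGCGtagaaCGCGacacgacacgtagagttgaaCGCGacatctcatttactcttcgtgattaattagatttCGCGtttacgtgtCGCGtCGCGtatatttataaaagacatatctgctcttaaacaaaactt
cig2: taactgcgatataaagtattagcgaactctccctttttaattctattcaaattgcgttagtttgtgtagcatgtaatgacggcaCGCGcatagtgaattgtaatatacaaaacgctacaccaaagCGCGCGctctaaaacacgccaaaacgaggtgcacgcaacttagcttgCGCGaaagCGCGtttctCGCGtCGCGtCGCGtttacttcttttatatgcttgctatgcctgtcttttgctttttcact
suc22: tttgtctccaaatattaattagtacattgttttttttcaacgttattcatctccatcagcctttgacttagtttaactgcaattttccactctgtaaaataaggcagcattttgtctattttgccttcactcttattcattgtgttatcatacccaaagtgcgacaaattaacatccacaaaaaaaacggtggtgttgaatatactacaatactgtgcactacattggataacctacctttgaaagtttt

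A window of 30 bases shows the boxes of the other genes with ACGCGT, again in capitals. These are cdt1 (chrII:477303-477332, plus strand), cdt2 (chrI:2035743-2035772, minus strand), mrc1 (chrI:4212434-4212463, minus strand) and ssb1 (chrII:221341-221370, minus strand).
cdt1: gatagctacgcgACGCGTcaacaaacgcga
cdt2: cacggACGCGTcgcgttcACGCGTcacgaa
mrc1: agtcgcgACGCGTcaagACGCGTcgcgttt
ssb1: tgttacgACGCGTcatgACGCGTtcgcgtt

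In cdc22, mrc1 and ssb1 the nearest pair of boxes began 10 bases apart, and in cdt2 13 bases apart. The boxes began 62 and 52 bases before the gene start of cdc22, 68 and 58 before that of mrc1, and 65 and 55 before that of ssb1. The genes ssb1 and mik1 point away from each other, and RefSeq places the start of each at base 221298 of chromosome II. The ssb1 boxes therefore lie inside the RefSeq mik1 transcript, 351, 341 and 316 bases before the mik1 start codon. The mik1 feature of the deposited data begins later, at base 221358. That placement, and the lack of ACGCGT in the mik1 window, thus rest on the RefSeq start.

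The deposited values are log2 ratios of each library to 1 common reference, whose identity no file states. Reads per feature were recovered from the deposited ratios and p-values, and gave 15282718 to 24005943 reads per library over the features. Differences are log2 ratios between libraries on the scale of the deposited values, followed in brackets by the 95% counting interval. A difference of at least 2-fold was called. With 1 library per genotype no test of a genotype was possible, and no difference has a replicate check. Levels are RPKM values computed from the recovered reads, the feature span and the library total. In these bulk cultures, fewer cells in the G1/S window and less RNA per cell cannot be told apart.

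The deleted genes checked the labels first. Reads over ssu72 numbered 16 in its own deletion library and 478 to 740 elsewhere. Reads over swd22 numbered 281 in its own deletion library and 651 to 787 elsewhere. For clr4 they numbered 1645 in its own deletion library against 1158 in wild type, which had fewer reads in all. On the scale of the deposited values clr4 differed by -0.07 (-0.18 to 0.04) from wild type there. From the unnamed reference it differed by 0.30 (0.19 to 0.40). Reads over clr4 thus do not bear out the label of the clr4 deletion library. The extent of the swd22 and clr4 deletions within these features is not given. The library labelled wild type stood apart from the rest in the heterochromatin gene swi6, which had only 200 reads in it. The other 4 had 3601 to 4431. Over mRNA features the reference was no nearer to the deletion libraries than wild type was. In swd22, ssu72 and clr4 deletion, 448, 423 and 411 mRNA features were 2-fold higher than in the reference, and 118, 121 and 88 lower. Against wild type 327, 308 and 273 were higher, and 87, 145 and 62 lower. The level of each G1/S gene is therefore given in all 5 libraries, and the counts and medians of gene groups also against the unnamed reference. No source used here gives the strain or growth of that reference.

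Most of the G1/S genes were lower in the CPF deletion libraries than in the library labelled wild type. In the library labelled ssu72 deletion, 6 of 10 were at least 2-fold lower and none was 2-fold higher, with a median of -1.13. Of 5050 measured mRNA features, 2.87% were 2-fold lower and 6.1% higher, and their median was -0.02. In the library labelled swd22 deletion, 3 of 10 were 2-fold lower and none higher, with a median of -0.82, against 1.72% lower and 6.48% higher among 5048 mRNA features and a median of 0.03. In the library labelled clr4 deletion, none of the 10 was 2-fold different and the median was -0.29, against 1.23% lower and 5.4% higher among 5056 mRNA features and a median of -0.03. At 1.5-fold, 7 were lower in ssu72 deletion and 6 in swd22 deletion, with 8.3% and 5.82% of mRNA features, and suc22 was the 1 higher gene in each, with 13% and 14.2%. In clr4 deletion mik1 alone was 1.5-fold lower, with 3.62% of mRNA features. The 3 comparisons share the library labelled wild type.

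**Figure D1:**
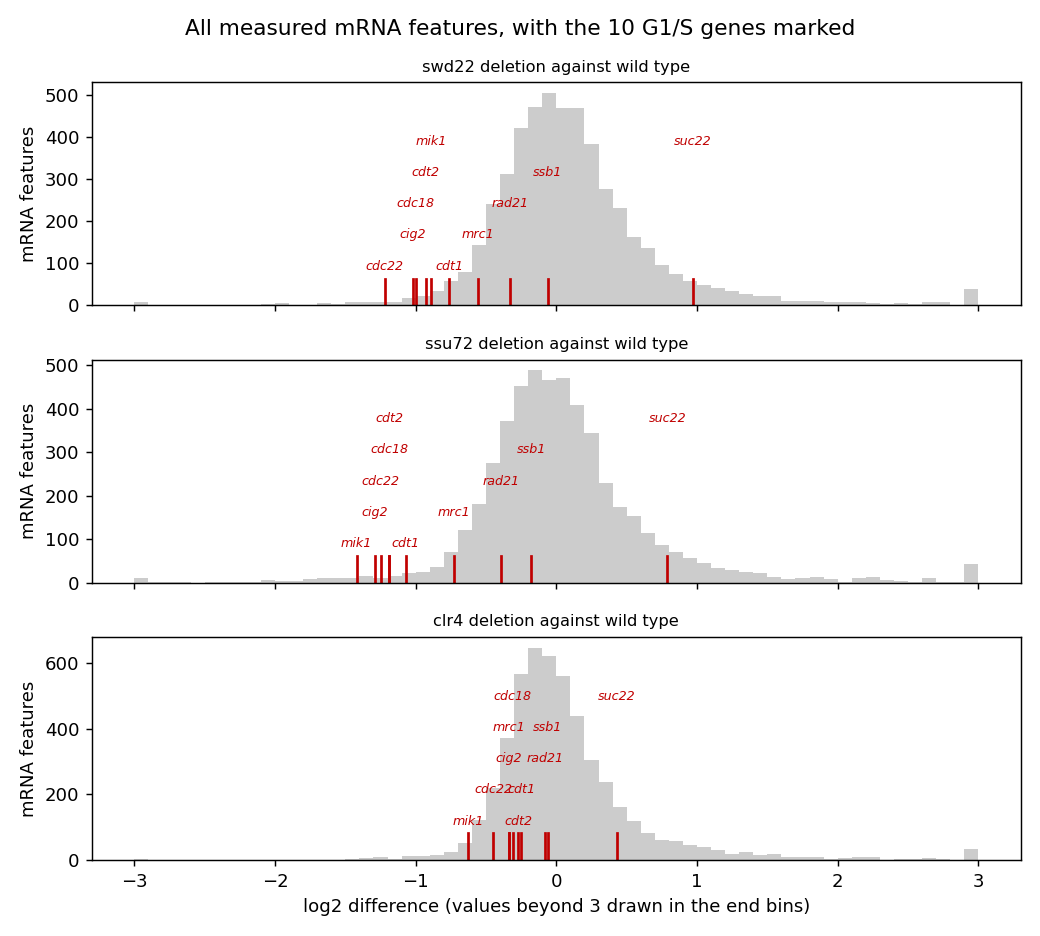
Histograms of the log2 difference of all measured mRNA features (y axis, number of features; x axis, log2 difference) for each deletion library against the library labelled wild type, with the 10 G1/S genes as red ticks. In the ssu72 panel 6 ticks lie at or below -1.07, while suc22 lies at 0.79 on the other side.

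The genes that license origins were among those lower. Cdc18, which loads the MCM helicase at origins, is encoded by cdc18 (chromosome II, 2215955 to 2218031 in the files). Its level was 58.9 in wild type, 29.4 in swd22 deletion, 25.8 in ssu72 deletion, 47.5 in clr4 deletion and 44.5 in the unnamed reference. Both CPF deletion libraries lay below the other 3. The difference from wild type was -1.0 (-1.11 to -0.90) for swd22, just past the threshold, -1.19 (-1.30 to -1.09) for ssu72 and -0.31 (-0.40 to -0.22) for clr4.

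Cdt1 works with Cdc18 in licensing. The level of cdt1 (chromosome II, 477189 to 478738) was 32.2 in wild type, 19.0 in swd22 deletion, 15.4 in ssu72 deletion, 27.1 in clr4 deletion and 17.1 in the unnamed reference. Here the reference lay between the CPF deletion libraries and not beside clr4. The differences from wild type were -0.76 (-0.92 to -0.60), -1.07 (-1.23 to -0.91) and -0.25 (-0.39 to -0.11) for swd22, ssu72 and clr4. The ratio of cdc18 to cdt1 levels was 1.55 to 1.83 in the 4 labelled libraries and 2.61 (2.38 to 2.86) in the reference.

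Cdt2 is the substrate receptor of a cullin ubiquitin ligase that removes Cdt1 and the ribonucleotide reductase inhibitor Spd1 during S phase. The cdt2 feature (chromosome I, 2033768 to 2035673) had a level of 29.4 in wild type, 15.4 in swd22 deletion, 12.8 in ssu72 deletion, 24.4 in clr4 deletion and 17.3 in the reference. It was the lowest or next to lowest of the 10 genes in each library. Its differences from wild type were -0.93 (-1.09 to -0.78) in swd22 deletion, just short of the threshold, -1.19 (-1.35 to -1.04) in ssu72 deletion and -0.27 (-0.40 to -0.13) in clr4 deletion.

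The 2 ribonucleotide reductase genes went opposite ways. This enzyme makes deoxynucleotides from a large subunit, Cdc22, and a small subunit, Suc22. The level of cdc22 (chromosome I, 4226958 to 4229989) was 393 in wild type, 169 in swd22 deletion, 165 in ssu72 deletion, 287 in clr4 deletion and 219 in the reference. The level of suc22 (chromosome II, 3721621 to 3723072) was 221, 435, 384, 299 and 389 in the same order. For suc22 the library labelled wild type was the lowest of the 5, and for cdc22 it was the highest.

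Against wild type, cdc22 differed by -1.22 (-1.25 to -1.18) in swd22 deletion, -1.25 (-1.29 to -1.22) in ssu72 deletion and -0.45 (-0.48 to -0.42) in clr4 deletion. The differences of suc22 were 0.97 (0.93 to 1.02), 0.79 (0.75 to 0.84) and 0.43 (0.39 to 0.48), none of them called. Per length, cdc22 stood at 1.78 (1.72 to 1.83) times suc22 in wild type, 0.96 (0.937 to 0.983) in clr4 deletion, 0.562 (0.549 to 0.575) in the reference, 0.43 (0.42 to 0.441) in ssu72 deletion and 0.388 (0.378 to 0.399) in swd22 deletion. The order of the subunit levels was thus reversed between wild type and the other 4 libraries. The suc22 feature shares its last 60 bases with trm1 on the same strand. Without suc22, the medians of the other 9 genes against wild type were -0.89, -1.19 and -0.31 for swd22, ssu72 and clr4.

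**Figure D2:**
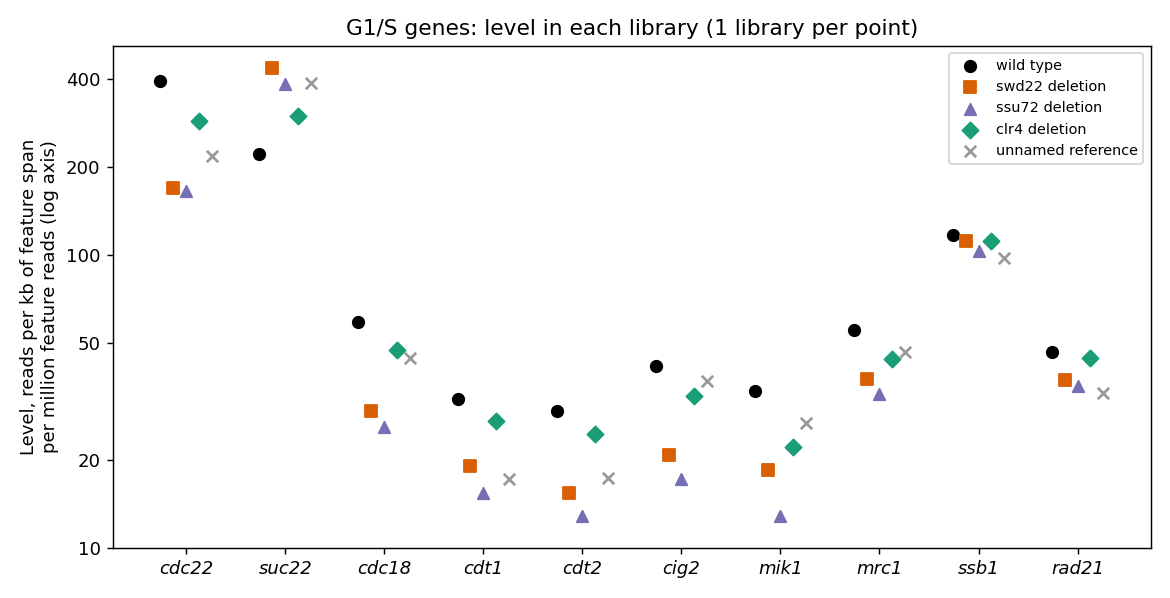
Level of each G1/S gene (x axis) as RPKM over the feature span (y axis, log scale), 1 point per library and no error bars. Squares and triangles of the CPF deletions lie below the circle of wild type for every gene but suc22, where wild type is lowest at 221.

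Cig2 is the B-type cyclin that drives entry into S phase. The cig2 feature (chromosome I, 2709731 to 2714162) had a level of 41.8 in wild type, 20.7 in swd22 deletion, 17.1 in ssu72 deletion, 33.1 in clr4 deletion and 37.0 in the reference. The CPF deletion libraries were again the lowest 2. The differences from wild type were -1.02 (-1.10 to -0.93), -1.29 (-1.38 to -1.20) and -0.34 (-0.41 to -0.26). This feature overlaps pmc1 on the opposite strand by 1459 bases, and the strand setting of the counting is not given.

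Mik1 is a kinase that, with Wee1, holds back Cdc2 and so prevents mitosis before replication ends. The level of mik1 (chromosome II, 221358 to 224117) was 34.3 in wild type, 18.5 in swd22 deletion, 12.8 in ssu72 deletion, 22.1 in clr4 deletion and 26.7 in the reference. It had the widest range of the 10 genes, 2.67-fold from the lowest to the highest library. The differences from wild type were -0.89 (-1.01 to -0.77), -1.42 (-1.54 to -1.29) and -0.63 (-0.74 to -0.53), in the order swd22, ssu72 and clr4. It also had the largest difference between the CPF deletions, at -0.53 (-0.66 to -0.39) for ssu72 against swd22.

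Mrc1 (claspin) carries the replication checkpoint signal at the fork. The level of mrc1 (chromosome I, 4209203 to 4212453) was 55.5 in wild type, 37.8 in swd22 deletion, 33.5 in ssu72 deletion, 44.0 in clr4 deletion and 46.6 in the reference. In the CPF deletions the differences from wild type were smaller than for the genes above, with values of -0.56 (-0.63 to -0.48), -0.73 (-0.81 to -0.65) and, for clr4 deletion, -0.34 (-0.41 to -0.26), and none was called.

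The gene ssb1 encodes the large subunit of replication protein A, which coats single-stranded DNA. The level of ssb1 (chromosome II, 219182 to 221326) was 117 in wild type, 112 in swd22 deletion, 103 in ssu72 deletion, 112 in clr4 deletion and 97.5 in the reference. These values span 1.2-fold, the narrowest range of the 10. The difference from wild type was largest in ssu72 deletion, at -0.18 (-0.24 to -0.12). The ssb1 boxes also lie before the start codon of its divergent neighbour mik1, and whether they act on mik1 was not tested. The mik1 level went from 0.293 (0.275 to 0.311) of the ssb1 level in wild type to 0.165 (0.154 to 0.177) in swd22 deletion and 0.124 (0.116 to 0.134) in ssu72 deletion. The same ratio was 0.197 (0.186 to 0.209) in clr4 deletion and 0.273 (0.258 to 0.289) in the reference.

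Rad21 is the kleisin subunit that closes the cohesin ring around sister chromatids. The level of rad21 (chromosome III, 1342923 to 1346239) was 46.8 in wild type, 37.3 in swd22 deletion, 35.8 in ssu72 deletion, 44.4 in clr4 deletion and 33.8 in the reference. The CPF deletion libraries lay between the reference and clr4. The differences from wild type were -0.33 (-0.41 to -0.25), -0.39 (-0.47 to -0.31) and -0.08 (-0.15 to -0.00). The feature overlaps pof3 on the opposite strand by 962 bases.

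**Figure D3:**
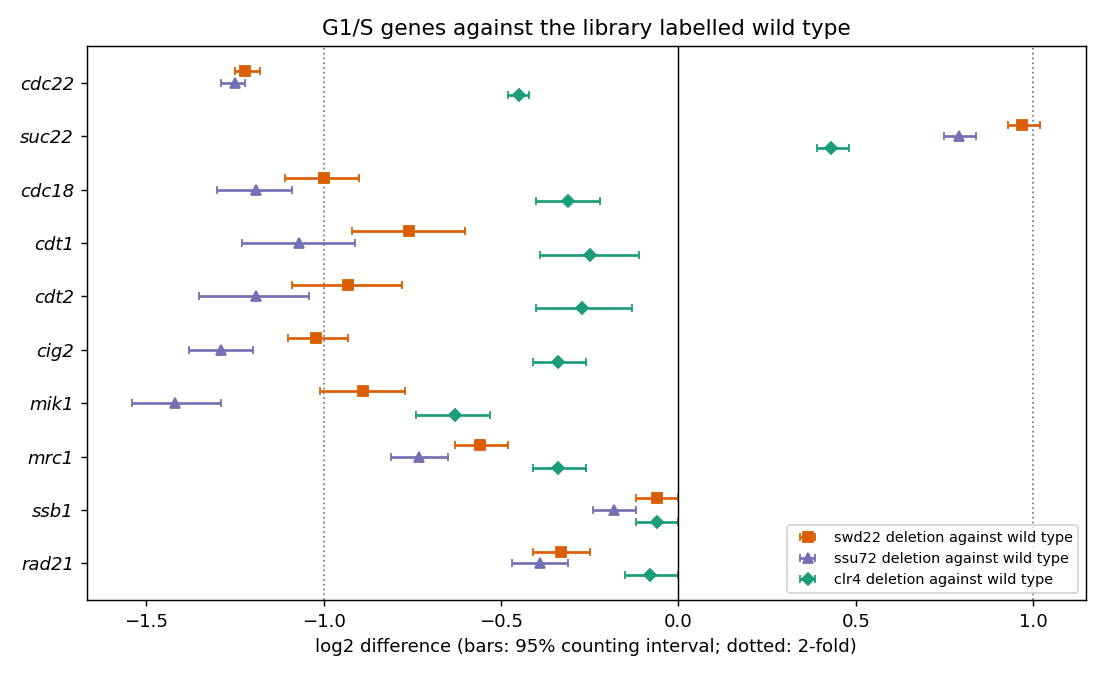
Log2 difference (x axis) of each G1/S gene (y axis) in each deletion library against the library labelled wild type, with 95% counting intervals as bars and dotted lines at 2-fold. The ssu72 points of cdc18, cdt1, cdc22, cdt2, cig2 and mik1 lie below -1, and no clr4 point reaches it.

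Comparisons without the library labelled wild type gave smaller differences. Against the library labelled clr4 deletion, 9 of 10 genes were lower in ssu72 deletion, with a median of -0.79, and 8 of 10 in swd22 deletion, with a median of -0.38. None reached 2-fold, where 2.29% of mRNA features were 2-fold lower for ssu72 and 2.04% for swd22. At 1.5-fold, 6 of 10 were lower for ssu72 (cdc18, cdt1, cdc22, cdt2, mik1 and cig2) and 4 of 10 for swd22 (cdc18, cdc22, cdt2 and cig2). Among all mRNA features 5.91% and 4.67% passed that threshold. The medians over all mRNA features were 0.01 and 0.06.

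The lowest gene in ssu72 deletion against clr4 deletion was cig2, at -0.95 (-1.04 to -0.87). The lowest in swd22 deletion against clr4 deletion was cdc22, at -0.76 (-0.80 to -0.73). The gene suc22 was higher here too, at 0.54 (0.50 to 0.58) for swd22 and 0.36 (0.32 to 0.39) for ssu72.

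Against the unnamed reference, 2 of 10 genes were 2-fold lower in ssu72 deletion, mik1 at -1.05 (-1.17 to -0.93) and cig2 at -1.11 (-1.19 to -1.03), with 2.4% of mRNA features 2-fold lower. None was in swd22 deletion, where cig2 was lowest at -0.84 (-0.92 to -0.75) and 2.34% of mRNA features were 2-fold lower. In both libraries cdc18, cdc22, cdt2, mik1, cig2 and mrc1 were lower than the reference, while ssb1 and rad21 were slightly higher. For suc22 the difference of ssu72 deletion from the reference was -0.02 (-0.05 to 0.02). The library labelled wild type itself stood above the reference for 9 of 10 genes, by up to 0.92 (0.76 to 1.07) for cdt1, and below it for suc22 at -0.81 (-0.86 to -0.76). The library labelled clr4 deletion had a median of 0.15 against the reference, with 6 of 10 genes above it and 4 below, so the sign of its median turned with the control.

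**Figure D4:**
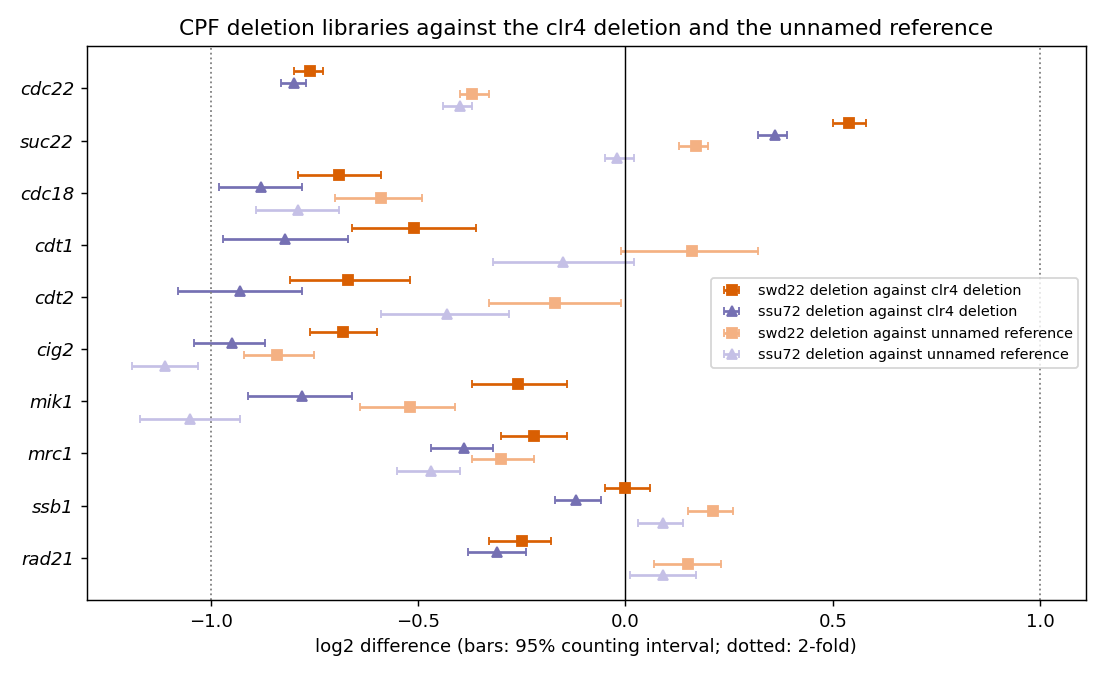
Log2 difference (x axis) of each G1/S gene (y axis) in the CPF deletion libraries against the clr4 deletion library (dark) and the unnamed reference (light), with 95% counting intervals as bars and dotted lines at 2-fold. For cdc18, cdc22, cdt2, cig2, mik1 and mrc1 every point lies below 0, and the ssu72 values of cig2 and mik1 against the reference pass -1.

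Between the CPF deletions the genes differed little. All 10 lay lower in ssu72 deletion than in swd22 deletion, with cdc22 turning to 0.02 once the median of coding features was set to 0. The median was -0.19, and none was 2-fold different, where 1.09% of mRNA features were 2-fold lower. Of all 5041 measured mRNA features 3232 were also below 0, with a median of -0.06. After mik1 the largest difference was that of cdt1, at -0.31 (-0.48 to -0.14). The intervals of rad21 (-0.14 to 0.02) and cdc22 (-0.07 to 0.00) reached 0.

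The order of the levels placed cdc22 and suc22 first in every library, followed by ssb1. In wild type the order went on with cdc18, mrc1, rad21, cig2, mik1, cdt1 and cdt2. Neighbours whose ratio of levels did not leave 1 by counting error were mik1 with cdt1 (1.06, 0.974 to 1.16) and cdt1 with cdt2 (1.10, 0.994 to 1.21). In ssu72 deletion rad21 came before mrc1, followed by cdc18, cig2, cdt1, mik1 and cdt2, and mik1 and cdt2 could not be separated (1.0, 0.90 to 1.11). Among mRNA features with recovered reads, cdc18 moved from percentile 61.5 in wild type to 28.6 in ssu72 deletion, and cig2 from 47.4 to 16.7, while ssb1 went from 81.6 to 78.8.

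The regulators of the wave showed no 2-fold difference in any deletion library against wild type, over 7 genes. The gene of the common MBF subunit, cdc10, differed by -0.27 (-0.39 to -0.16) in swd22 deletion and -0.33 (-0.45 to -0.22) in ssu72 deletion, and by -0.24 (-0.34 to -0.13) and -0.30 (-0.40 to -0.20) against the unnamed reference. Of the genes of the DNA-binding subunits, res1 lay at 0.28 (0.17 to 0.39) and 0.35 (0.24 to 0.45) against wild type, and res2 at 0.12 (-0.02 to 0.25) and -0.06 (-0.19 to 0.07). Against the reference res1 lay at 0.10 (0.01 to 0.20) and 0.17 (0.08 to 0.26), and res2 at 0.54 (0.41 to 0.67) and 0.37 (0.24 to 0.49).

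The direction of the coactivator gene rep1 turned with the control. It lay at -0.74 (-0.95 to -0.53) in swd22 deletion and -0.99 (-1.19 to -0.78) in ssu72 deletion against wild type, and at 0.87 (0.62 to 1.12) and 0.62 (0.37 to 0.87) against the reference. In wild type rep1 stood 1.60 (1.36 to 1.85) above the reference, and in clr4 deletion 1.07 (0.83 to 1.31). The other coactivator gene, rep2, lay at 0.37 (0.26 to 0.49) and 0.24 (0.13 to 0.35) against wild type and at 0.07 (-0.02 to 0.17) and -0.06 (-0.16 to 0.03) against the reference. The corepressor gene nrm1 lay at -0.60 (-0.68 to -0.52) and -0.49 (-0.57 to -0.41) against wild type and at -0.34 (-0.42 to -0.27) and -0.23 (-0.30 to -0.16) against the reference. The corepressor gene yox1 lay at -0.19 (-0.34 to -0.03) and -0.54 (-0.70 to -0.38) against wild type and at -0.35 (-0.49 to -0.21) and -0.70 (-0.84 to -0.56) against the reference. The median of the 7 was -0.19 for swd22, -0.33 for ssu72 and 0.02 for clr4 against wild type, and 0.07, -0.06 and -0.06 against the reference.

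Of 12 other genes listed as MBF targets, 1 was 2-fold lower in each CPF deletion library and none was higher, with medians of -0.23 for swd22, -0.41 for ssu72 and -0.27 for clr4. It was tos4, which encodes a protein with an FHA domain, at -1.09 (-1.14 to -1.03) and -1.28 (-1.33 to -1.22). None of the 12 was called in clr4 deletion. Against the unnamed reference none was called, the medians were -0.33 and -0.43 for swd22 and ssu72, and tos4 lay at -0.36 (-0.42 to -0.30) and -0.55 (-0.61 to -0.49). Of 30 licensing and fork genes, the helicase gene cdc45 alone was called, at -1.03 (-1.12 to -0.94) in ssu72 deletion, a share near the 2.87% of mRNA features. It lay at -0.95 (-1.04 to -0.87) against the reference. The list medians were -0.11, -0.31 and -0.23 for swd22, ssu72 and clr4 against wild type, and -0.16, -0.36 and -0.27 against the reference, where none was called.

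The lists around single members held few called genes. Of 12 other genes listed for cohesin and its control, none was called in any deletion library. Their medians were 0.05, -0.11 and 0.01 for swd22, ssu72 and clr4 against wild type and 0.05, -0.07 and -0.02 against the reference. Of these genes, psm3 and eso1 were also in the list of MBF targets above. Of 13 replication checkpoint genes, the clamp gene rad1 was called in ssu72 deletion at -2.06 (-2.30 to -1.82). Against the reference it lay at -2.36 (-2.59 to -2.14) there and at -1.07 (-1.25 to -0.90) in swd22 deletion. The medians of the checkpoint list were 0.12, -0.01 and 0.01 for swd22, ssu72 and clr4 against wild type. Against the reference they were -0.02, 0.03 and 0.01. Compared with wild type, 7 of the 13 lay higher in swd22 deletion and 6 in ssu72 deletion.

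Of 7 other genes of nucleotide supply, spd2, of the ribonucleotide reductase inhibitor family, was called in swd22 deletion at 1.12 (1.04 to 1.20), but lay at -0.01 (-0.07 to 0.05) against the reference. The dUTPase gene dut1, named after its values were seen, lay at -0.85 (-0.96 to -0.74) in swd22 deletion and -0.99 (-1.10 to -0.89) in ssu72 deletion against wild type. Against the reference it was the 1 called gene of this list, at -1.03 (-1.14 to -0.93) and -1.18 (-1.28 to -1.08). The list medians were -0.21, -0.23 and -0.06 against wild type and -0.01, -0.09 and -0.04 against the reference. The 10 genes of CDK control had medians of -0.25, -0.37 and -0.22 against wild type and 0.08, 0.02 and -0.03 against the reference. The 6 genes of single strand binding and repair had medians of 0.18, 0.11 and 0.03 against wild type and 0.23, 0.27 and 0.21 against the reference. No gene of either list was called in any deletion library.

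Lists of other waves of the cell cycle were read in the same libraries. All 7 listed genes of cell separation, which follows mitosis, were 2-fold lower in both CPF deletion libraries, with medians of -1.65 for swd22 and -1.67 for ssu72, and 2 of 7 in clr4 deletion with a median of -0.93. The largest difference in each of these libraries was that of adg1 in swd22 deletion at -2.31 (-2.41 to -2.21) and of the glucanase gene eng1 in ssu72 deletion at -2.10 (-2.14 to -2.05). Against the reference 2 of the 7 were called in swd22 deletion and 3 in ssu72 deletion, with medians of -0.97 and -0.94, and none in clr4 deletion, with a median of -0.33. Of 11 mitotic genes, slp1, an activator of the anaphase-promoting complex, was called in each deletion library, at -1.27 (-1.34 to -1.21), -1.37 (-1.43 to -1.31) and -1.04 (-1.10 to -0.98), and the medians were -0.34, -0.61 and -0.36. Against the reference none of the 11 was called, the medians were -0.18, -0.38 and -0.09, and slp1 lay at -0.55 (-0.62 to -0.49), -0.64 (-0.70 to -0.58) and -0.31 (-0.37 to -0.25). The 10 histone genes, expressed in S phase, had medians of -0.33, -0.26 and 0.08 against wild type and 0.09, 0.10 and 0.54 against the reference, with none called in a deletion library. Their part in the differences of the 10 G1/S genes was not tested.

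The 161 measured genes with ACGCGT in the window had a median of -0.11 in swd22 deletion and -0.08 in ssu72 deletion against wild type, where all matched genes had 0.03 and -0.02. Against the reference their medians were -0.04 and -0.10, where all matched genes had 0.06 and -0.01. Without the 5 members among them, 2 of 156 were 2-fold lower in swd22 deletion and 6 of 156 in ssu72 deletion, where 86 of 4910 and 142 of 4911 of all matched genes were. Among the 9 other genes with at least 4 cores, tos4 and the DNA polymerase alpha gene pol1 were the lowest in the CPF deletions against wild type. Against the reference, yox1 lay below both of them in ssu72 deletion. For pol1 the differences were -0.85 and -0.69 against wild type and -0.62 and -0.46 against the reference. The uracil-regulated gene urg1 lay the other way, at 1.41 and 1.09 against wild type and 2.50 and 2.17 against clr4 deletion. Of the members, ssb1 has 6 cores and differed least, and rad21, with 2, lay next to it.

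The likeness of other genes to the median profile of the 10 was measured as Euclidean distance over the 4 deposited log2 ratios, among 4735 mRNA features with at least 100 reads in each library. The nearest were cdc15, which encodes a protein of the contractile ring (distance 0.104), the cyclophilin gene cyp8 (0.114), shd1 (0.144), and ssr1 (0.164) and rsc58 (0.175), subunit genes of chromatin remodelling complexes. The median profile was 0.39 in wild type, -0.23 in swd22 deletion, -0.42 in ssu72 deletion and 0.15 in clr4 deletion, as log2 ratios to the reference. Of the members mrc1 lay nearest to it (0.276) and suc22 farthest (1.42).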

How the data were processed

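Per the submitters' processing notes, Trimmomatic and STAR were used, with no version stated. No source used here states the genome build, the strand setting or what made the ratios. Per the file headers, each of the 4 deposited files holds a log2 fold change against a reference library and a p-value per feature. The deposited p-values compare reads of 2 libraries and were not used as tests. Under a random sampling model they follow from ratio and reads, and whole reads were solved for 6653 of 7015 features. Of these, 6556 were solved with a p-value. The rest took the smallest reference count that made their ratios whole. Each feature lay within 0.01 of a whole number in every file, though closeness to whole numbers also guided the solving. The solving was tested on simulated data made with the same model. That test cannot show whether the deposited p-values follow the model. Reads of 0, or left between 0 and 4 by a ratio of 0, stood at 0.5. No member was affected.

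A feature was measured where the higher library had at least 10 reads, and called at 2-fold. Intervals (95%, Clopper-Pearson, exact) cover counting error only, as no molecular identifiers marked single molecules. Depth was 15282718 to 24005943 reads per library, and 572 reads or more stood behind each member's value. The deposited scale lay -0.0026 to -0.0022 (log2) from that of library totals.

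The members and lists were chosen with earlier results of these data known. Named genes were all members, all MBF regulators, at most 3 genes per other list at 2-fold, the 5 nearest profiles and the deleted genes. Genes named for their promoter motifs and swi6 were chosen after their values were seen. A gene of the cell separation list is not reported here and was left out of its counts. RefSeq synonyms gave names for list genes not found under their own. Of 4995 coding genes matched with RefSeq, 99.3% shared an end exactly with the files. Python 3.11.15, numpy 2.4.6, scipy 1.17.1 and pandas 2.3.3 were used. The alternatives tried were other scalings, thresholds, read minimums and the reference as control.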

Additional observations from a re-analysis of the deposited data

Results flagged for a closer look

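Antisense features over 2 of the G1/S genes held more reads than in the library labelled wild type, outside the comparisons above. The feature cig2-antisense-1, which lies wholly inside cig2, held 179 reads in wild type and 447 in clr4 deletion, a difference of 0.74 (0.49 to 1.0). It lay at 0.04 (-0.24 to 0.33) in swd22 deletion and 0.22 (-0.05 to 0.49) in ssu72 deletion. The feature mrc1-antisense-1, which covers nearly all of mrc1, held 255 reads in wild type, 414 in swd22 deletion and 577 in ssu72 deletion, differences of 0.34 (0.11 to 0.57) and 0.53 (0.31 to 0.74). A further antisense feature over a member, cdc18-antisense-1, lay the other way, at -0.60 (-1.01 to -0.19) in swd22 deletion, -0.34 (-0.71 to 0.03) in ssu72 deletion and -0.58 (-0.97 to -0.19) in clr4 deletion. Against the unnamed reference cdc18-antisense-1 lay at 0.06 (-0.35 to 0.48), 0.32 (-0.05 to 0.70) and 0.08 (-0.31 to 0.48) in the same order. Wild type itself lay at 0.66 (0.27 to 1.06) there. Against the reference cig2-antisense-1 lay at 0.71 (0.49 to 0.94) in clr4 deletion. There mrc1-antisense-1 lay at 0.55 (0.34 to 0.76) in swd22 deletion and 0.74 (0.54 to 0.94) in ssu72 deletion. Against wild type, the median over all measured antisense features was 0.26 in swd22 deletion, 0.42 in ssu72 deletion and 0.27 in clr4 deletion. The mrc1 values against wild type thus stand near it. Counting intervals flagged these values, and no replicate bears on them.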

How the results depend on the processing

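The choice of control moved the results most. With the unnamed reference in place of the library labelled wild type, the genes at least 2-fold lower went from 3 to 0 in swd22 deletion and from 6 to 2 in ssu72 deletion, and the medians from -0.82 to -0.23, from -1.13 to -0.42 and, for clr4 deletion, from -0.29 to 0.15. The sign of 3 of 10 members turned with this control in swd22 deletion (cdt1, ssb1 and rad21), of 3 in ssu72 deletion (suc22, ssb1 and rad21) and of 7 in clr4 deletion, the exceptions there being mik1, cig2 and mrc1. The cause was not tested. At a threshold of 1.5-fold, 6 genes were lower in swd22 deletion and 1 in clr4 deletion against wild type, suc22 as the 1 higher gene passed in swd22 and in ssu72 deletion, and against clr4 deletion 4 were lower for swd22 and 6 for ssu72, the last 2 counts added after the data were seen. Scaling by total feature reads, setting the median of coding features to 0, and a minimum of 50 reads or of 1 read kept every count of called members within 1.5 times. With the median of coding features set to 0, 7 of 60 differences of single members moved past their counting interval, and cdc22 in ssu72 against swd22 deletion turned from -0.04 to 0.02. Scaling by total feature reads moved none of the 60. In the window of 500 bases before the start codon, 6 of the 10 genes had ACGCGT in place of 5, against 237 of 5113 promoters (4.64%). The added gene was mik1, through the same boxes as ssb1. No paired analysis was possible because each genotype had 1 library. Depth limits little here, since the members held at least 572 reads each. The lack of replicates limits every difference.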
